A study of Mus musculus with 9 samples.

Results

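The interferon-stimulated genes described here are 44 genes that cells switch on when interferon binds its receptors, followed in neutrophils of C57BL/6 wild-type mice, sorted by flow cytometry from the bone marrow, the blood and the lung. They were chosen by symbol, as a list of signalling, antiviral and GTPase genes, and all 44 were found among the 24532 genes of the deposited table. Each tissue was represented by 3 polyA RNA libraries that the labels number 1, 2 and 3, and the series text calls the replicates biological without naming the animals. No treatment is named for any group, and the sources used here give neither the age and sex of the mice nor the markers and gates of the sort. P-values therefore measure the spread among 3 libraries a tissue. Levels are read counts normalised to library size (CPM) with trimmed-mean scaling factors, listed in the order of libraries 1, 2 and 3, and differences between tissues are log2 fold changes ± SE with Benjamini-Hochberg adjusted p-values from an edgeR quasi-likelihood fit of 13510 genes. All 44 genes entered that fit, and a gene is called higher or lower at an adjusted p under 0.05. In sorted bulk samples such as these, fewer cells of a type and less RNA per cell cannot be told apart.

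The libraries held 42045548 to 56796219 counts, so that 3 reads, taken as the detection floor, equalled 0.0528 to 0.0714 CPM. All 10 neutrophil markers were detected in every library, with summed levels of 88426 to 129690 CPM in bone marrow, 31154 to 44889 in blood and 27745 to 50278 in lung. Ly6g, the antigen that defines mouse neutrophils, averaged 528 CPM in bone marrow, 23.0 in blood and 19.9 in lung. Transcripts of other cells were present. B-cell markers, 10 of 10 of them detected in every library, summed to 34.5 to 139 CPM in bone marrow, 78.1 to 486 in blood and 53.0 to 526 in lung. In every tissue the library numbered 3 had the lowest B-cell sum. Fibroblast markers summed to 1889 and 1479 CPM in lung libraries 1 and 2 but to 107 in lung library 3, and to 178 in bone marrow library 3 against 42.3 and 47.0 in the other bone marrow libraries. Lung epithelium markers summed to 911, 287 and 78.9 CPM in lung against 23.5 to 38.0 in blood, and macrophage markers to 278, 333 and 225 against 138 to 171, and the part of these cells in differences of lung from blood was not tested. The markers of plasmacytoid dendritic cells, a major source of type I interferon, summed to 99.1 to 211 CPM, of which Siglech, a defining marker, averaged 0.815 CPM in bone marrow, 0.225 in blood and 1.15 in lung. Lung library 3 therefore stood apart from lung libraries 1 and 2, and results that rest on it are given with and without it.

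As background, type I interferons bind the receptor pair IFNAR1 and IFNAR2, which act through the kinases JAK1 and TYK2 to assemble ISGF3, a complex that includes STAT2 and IRF9 and binds the interferon-stimulated response element (ISRE) of target promoters. Interferon gamma acts through IFNGR1 and IFNGR2 on promoters with the gamma-activated site (GAS), and it is the stronger inducer of many guanylate-binding proteins and immunity-related GTPases. Neutrophils mature in the bone marrow, circulate briefly in blood and are held in large numbers in the capillaries of the lung.

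RefSeq promoters of build GRCm38.p6 (mm10) were found for 35 of the 44 genes and searched over the 250 bases before each start site, on both strands, for the ISRE letters GAAANNGAAA and the GAS letters TTCNNNGAA. The ISRE letters stood in 17 of the 35 (48.6%), against 3.46% of 27025 genes with a promoter in the table and 2.98% of all 32851 promoters. The GAS letters stood in 9 of the 35 (25.7%), against 8.13% of genes and 7.02% of promoters. Matches to both motifs overlapped in 1 of the 41 promoters listed for these 35 genes and in 18 of all promoters. Stretches of 120 bases are shown for the genes on which the tissue differences turn, with every ISRE match in capitals. Isg15 and Gbp5 were highest in lung, Irgm1, Igtp and Gbp7 were highest in blood, and Cmpk2, lowest in lung, holds no match. The coordinates are chr4:156200819-156200938 on the minus strand for Isg15, chr3:142496759-142496878 on the plus strand for Gbp5, chr11:48871421-48871540 on the minus strand for Irgm1, chr11:58199436-58199555 on the plus strand for Igtp, chr3:142530216-142530335 on the plus strand for Gbp7, and chr12:26469095-26469214 on the plus strand for Cmpk2.
Isg15: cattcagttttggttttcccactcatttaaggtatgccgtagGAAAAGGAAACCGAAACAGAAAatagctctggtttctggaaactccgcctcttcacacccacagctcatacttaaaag
Gbp5: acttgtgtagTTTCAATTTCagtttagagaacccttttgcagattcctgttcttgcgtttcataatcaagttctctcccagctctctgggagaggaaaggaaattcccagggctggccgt
Irgm1: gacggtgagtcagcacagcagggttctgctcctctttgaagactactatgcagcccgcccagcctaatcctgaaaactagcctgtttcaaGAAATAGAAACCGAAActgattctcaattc
Igtp: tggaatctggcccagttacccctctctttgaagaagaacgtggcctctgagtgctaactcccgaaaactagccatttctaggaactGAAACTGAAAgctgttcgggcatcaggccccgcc
Gbp7: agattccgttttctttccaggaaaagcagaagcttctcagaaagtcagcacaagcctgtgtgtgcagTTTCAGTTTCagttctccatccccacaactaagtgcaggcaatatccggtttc
Cmpk2: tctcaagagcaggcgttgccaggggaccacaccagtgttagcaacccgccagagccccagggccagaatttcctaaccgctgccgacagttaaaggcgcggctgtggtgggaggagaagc

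In Isg15 the capitals hold 3 overlapping matches that begin 78, 72 and 66 bases before the start site, and in Irgm1 they hold 2, at 30 and 24 bases. Igtp has 1 match at 34 bases, Gbp7 has 1 at 53 bases and Gbp5 has 1 at 165 bases, the last pair reading as the reverse complement. Igtp, Gbp5 and Gbp7 also hold GAS letters within the 250 bases. The pair Ifit3 and Ifit3b, which lie side by side on chromosome 19, is shown because their counts are hard to separate, and the same holds for their promoters. The stretches are chr19:34583363-34583482 for Ifit3 and chr19:34607759-34607878 for Ifit3b, both on the plus strand.
Ifit3: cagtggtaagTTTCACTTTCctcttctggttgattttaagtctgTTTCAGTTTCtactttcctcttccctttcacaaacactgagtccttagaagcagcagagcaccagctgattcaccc
Ifit3b: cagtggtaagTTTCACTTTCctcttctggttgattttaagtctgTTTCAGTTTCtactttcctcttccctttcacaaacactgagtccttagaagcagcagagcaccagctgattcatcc

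These stretches are identical at 119 of 120 bases, and each holds 2 ISRE matches. Among genes with a promoter in the table, the ISRE letters stood in 7 of the 12 that were higher in blood than in bone marrow and in 10 of the 23 that passed in neither direction. They stood in 5 of the 10 that were lower in lung than in blood and in 11 of the 23 that did not pass. In lung against bone marrow they stood in 4 of 5 higher genes, 0 of 3 lower genes and 13 of 27 that did not pass. A match is a description of these letters and no evidence of binding.

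Most of the 44 genes had their highest mean level in blood. The mean was highest in blood for 30 of 44, against 26.5% of all genes tested. By edgeR, 23 of the 44 differed in at least 1 comparison of tissues, against 50.2% of all genes, so that as a set they were called about as often as other genes. They differed in where they were high: 8 of 44 were above both other tissues in blood (Stat2, Oasl2, Parp14, Dtx3l, Gbp7, Irgm1, Igtp and Ifi47), against 2.86% of all genes. Only 2 of 44, Isg15 and Isg20, were above both other tissues in lung, against 7.69%. In lung 5 of 44 were below both (Usp18, Ddx58, Dhx58, Cmpk2 and Dtx3l), against 11.2%, and in bone marrow 2 of 44, Gbp3 and Gbp5, were below both, against 4.32%.

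**Figure D1:**
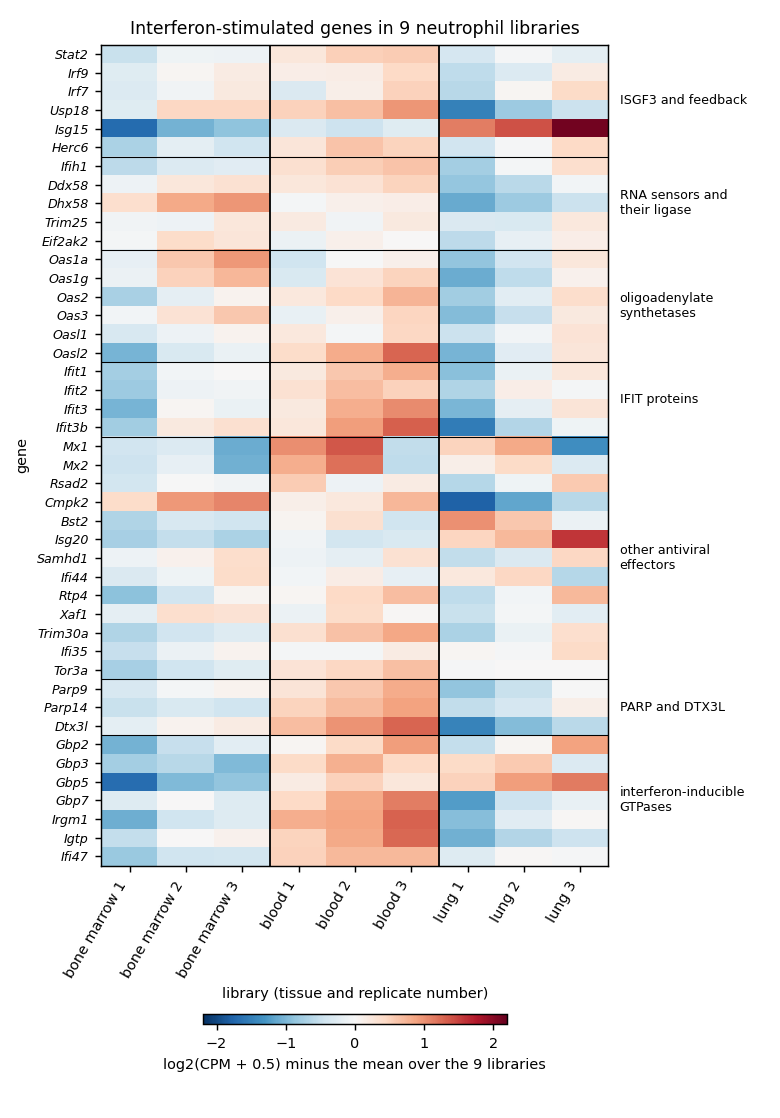
Level of each of the 44 genes (rows, grouped by role) in each of the 9 libraries (columns), as log2(CPM + 0.5) minus the mean of that gene over the 9 libraries. The mean CPM is highest in blood for 30 of 44 rows (26.5% of all genes), although single libraries of other tissues reach or pass blood libraries in many rows. The rows of Isg15 and Isg20 are reddest in lung, and library 1 is the bluest of its tissue in most rows.

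Blood neutrophils had more RNA of many interferon-stimulated genes than bone marrow neutrophils. In blood against bone marrow 14 of 44 genes were higher, against 8.34% of all genes, and 1 of 44, Dhx58, was lower, against 13.1%. The blood libraries lay above all bone marrow libraries for 23 of 44 genes, against 19.8%, and below them for 1 of 44, against 25.6%. The median log2 fold change was 0.76 for the 44 genes and -0.05 for all genes. The genes that were higher were Stat2, Herc6, Ifih1, Oasl2, Trim30a, Tor3a, Parp14, Dtx3l and 6 of the 7 GTPases (Gbp3, Gbp5, Gbp7, Irgm1, Igtp and Ifi47). Of the 15 calls, 5 (Gbp3, Gbp5, Irgm1, Ifi47 and Tor3a) held whichever library was left out, and 10 were lost without at least 1 library. The count of genes called higher was 6, 6 and 8 without bone marrow libraries 1, 2 and 3 (4.43%, 3.51% and 4.24% of all genes), and 9, 6 and 5 without blood libraries 1, 2 and 3 (4.92%, 4.07% and 4.46%). With the replicate number as a block it was 25 (12.1% of all genes), with 2 lower (17.5%), and the genes gained were Isg15, Ifit1, Ifit2, Ifit3, Ifit3b, Mx1, Mx2, Oas2, Parp9, Rtp4 and Gbp2, with Oas1a gained as lower. The counts also moved with the scaling, from 13 higher (7.70% of all genes) and 0 lower (10.2%) with DESeq2 size factors to 21 (12.5%) and 1 (11.3%) with upper-quartile scaling and 31 (17.4%) and 0 (7.77%) with library totals, all in edgeR. Over all genes the higher calls were 39.0% of calls in the main scaling, 52.6% with upper-quartile scaling and 69.1% with library totals, which moved the median of all genes from -0.05 to 0.33. Relative to the median of all genes, the median of the 44 was 0.81 higher in the main scaling and 0.82 higher with library totals.

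Lung neutrophils had less RNA of many of the same family than blood neutrophils, with a pair of exceptions. In lung against blood 14 of 44 genes were lower, against 15.7% of all genes, and 2 of 44 were higher, against 13.2%. The lung libraries lay below all blood libraries for 16 of 44 genes, against 24.0%, and above them for 2 of 44, against 17.6%. The median log2 fold change was -0.61 for the 44 genes and 0.05 for all genes. The genes that were lower were Stat2, Usp18, Ddx58, Dhx58, Oasl2, Ifit3b, Cmpk2, Parp9, Parp14, Dtx3l, Gbp7, Irgm1, Igtp and Ifi47, so that lower calls took a larger share of the 44 genes than of all genes. Of the 16 calls, 4 (Isg15, Usp18, Dtx3l and Igtp) held whichever library was left out. The count of genes called lower was 6 and 3 without blood libraries 2 and 3 (8.94% and 6.61% of all genes). Each time 1 was higher, Isg15 (7.16% and 6.54%). Without lung library 3, 23 were lower (20.2%) and 3 higher (19.8%). With the replicate number as a block the genes gained as lower were Ifih1, Ifit1, Ifit2, Ifit3, Irf9, Oas1g, Oas2, Oas3, Tor3a and Trim30a. The count called lower was then 24 (19.8%). It was 9 with DESeq2 size factors (10.6%), 13 with upper-quartile scaling (12.8%) and 23 with library totals (21.0%). Over all genes, higher calls were 45.6% of calls in the main scaling, 56.9% with DESeq2 size factors, 55.9% with upper-quartile scaling and 35.1% with library totals. Relative to the median of all genes, the median of the 44 was -0.66 in the main scaling and between -0.68 and -0.63 in the others. With the deposited RSEM expected counts, 2 were higher (10.3% of all genes) and 13 lower (12.0%), and Oasl2 was the call that was lost (adjusted p = 0.081).

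Lung and bone marrow neutrophils differed in fewer of these genes, in both directions. In lung against bone marrow 5 of 44 genes were higher (Isg15, Isg20, Bst2, Gbp3 and Gbp5), against 15.6% of all genes, and 5 of 44 were lower (Usp18, Ddx58, Dhx58, Cmpk2 and Dtx3l), against 22.6%. The libraries did not overlap for 7 of 44 genes that were higher in lung, against 20.1%, and for 4 of 44 that were lower, against 28.9%. The median log2 fold change was 0.11 for the 44 genes and 0.06 for all genes, and the former turned to -0.20 without lung library 3, -0.09 without bone marrow library 1 and -0.07 without the libraries numbered 3. Of the 10 calls, 5 (Isg15, Isg20, Gbp5, Cmpk2 and Dhx58) held whichever library was left out. The count of genes called higher was 3 without bone marrow library 3 (10.6% of all genes), 8 without lung library 1 (10.2%) and 3 without lung library 2 (9.50%). The count called lower was 3 without bone marrow library 2 (15.8%), 3 without bone marrow library 3 (16.3%), 3 without blood library 1 (14.9%), 2 without blood library 2 (15.0%) and 10 without lung library 3 (25.0%). With the replicate block 9 were higher (18.2%) and 12 lower (26.0%), the genes gained being Gbp2, Ifi47, Rtp4 and Tor3a as higher and Eif2ak2, Ifit3b, Igtp, Oas1a, Oas1g, Oas3 and Parp9 as lower. The number called higher was 7 with DESeq2 size factors (18.0%) and 12 with either upper-quartile scaling (23.0%) or library totals (18.5%). Over all genes, higher calls were 40.9% of calls in the main scaling, 52.0% with DESeq2 size factors, 59.3% with upper-quartile scaling and 53.1% with library totals, which moved the median of all genes from 0.06 to 0.20, 0.38 and 0.33.

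**Figure D2:**
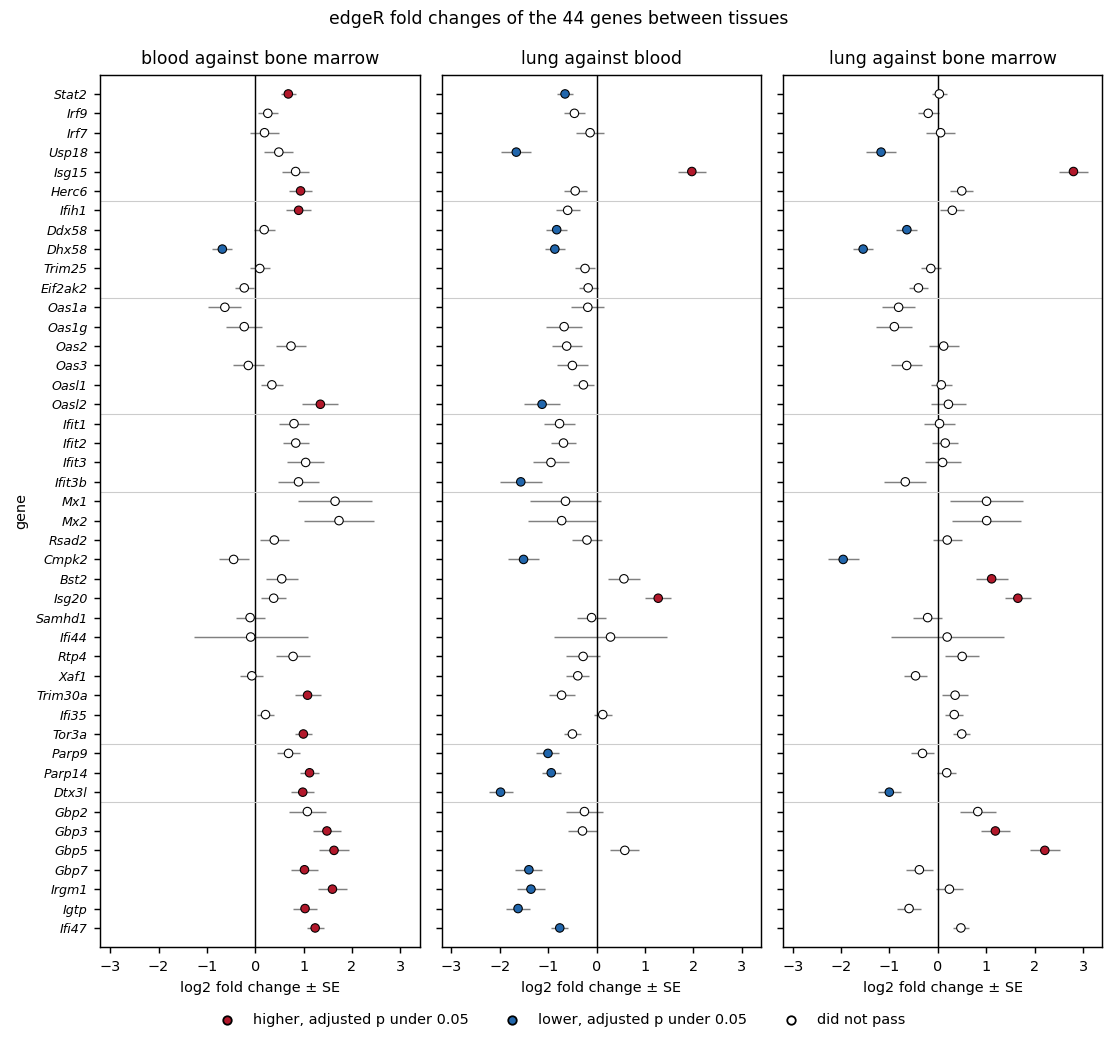
Log2 fold change ± SE of each of the 44 genes in each comparison of tissues, with filled points for adjusted p under 0.05 (red higher, blue lower). In blood against bone marrow 14 points are red and 1 is blue, in lung against blood 2 are red and 14 are blue, and in lung against bone marrow 5 are red and 5 are blue.

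Among the genes of interferon signalling and its feedback, Isg15 had the largest difference. It encodes a ubiquitin-like protein that is joined to other proteins during the interferon response. Isg15 read 19.95, 31.9 and 35.3 CPM in bone marrow, 52.7, 47.7 and 54.8 in blood and 145, 176 and 288 in lung. The 3 tissues did not overlap, and each lung library was above all others. Isg15 was higher in lung than in blood by 1.97 ± 0.29 (3.91-fold, adjusted p = 0.00182) and than in bone marrow by 2.80 ± 0.30 (6.97-fold, adjusted p = 0.000168). Its difference of 0.83 ± 0.28 between blood and bone marrow had an adjusted p of 0.0664 and passed with the replicate block (adjusted p = 0.0168). Over all alternatives the difference between lung and blood ran from 1.60 to 2.16. The gene is a single transcript on chromosome 4 (156199424 to 156200818, mm10) and shared none of its 50-base words with other transcripts.

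Usp18 encodes the protease that removes ISG15 from proteins and damps signalling at the type I interferon receptor, and it went the other way. Usp18 read 11.1, 18.5 and 18.6 CPM in bone marrow, 19.2, 21.4 and 26.9 in blood and 4.45, 7.45 and 9.49 in lung. All lung libraries lay below all others. It was lower in lung than in blood (-1.66 ± 0.31, 3.16-fold, adjusted p = 0.00498) and than in bone marrow (-1.17 ± 0.31, 2.26-fold, adjusted p = 0.0156), and the second call was lost without any 1 of bone marrow libraries 2 and 3 and blood libraries 1 and 2 (adjusted p of 0.0531 to 0.0607). Herc6, the main ISG15 ligase of the mouse, read 9.44, 13.4 and 11.4 CPM in bone marrow, 18.9, 24.3 and 22.2 in blood and 11.6, 15.3 and 21.3 in lung. Its blood libraries lay above all bone marrow libraries (0.94 ± 0.24, adjusted p = 0.0226), a call lost without any 1 library of either tissue, and lung did not pass against either.

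Stat2, a subunit of ISGF3, read 37.0, 48.7 and 48.1 CPM in bone marrow, 62.2, 75.7 and 77.0 in blood and 40.3, 51.5 and 44.9 in lung. Blood lay above both other tissues without overlap, by 0.68 ± 0.16 against bone marrow (adjusted p = 0.0156), and lung differed from blood by -0.65 ± 0.16 (adjusted p = 0.0149). The call against bone marrow was lost without bone marrow library 1 or 2 or blood library 2 or 3, and that against lung without blood library 2 or 3 or lung library 1. Irf9, its DNA-binding partner, averaged 113 ± 17.9 CPM in bone marrow (SD, n = 3), 135 ± 16.3 in blood and 98.0 ± 26.3 in lung, and the libraries overlapped in each comparison. Irf7, the factor that amplifies type I interferon production, averaged 156 ± 28.0, 178 ± 50.8 and 162 ± 55.7 CPM in the same order, with overlap throughout.

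**Figure D3:**
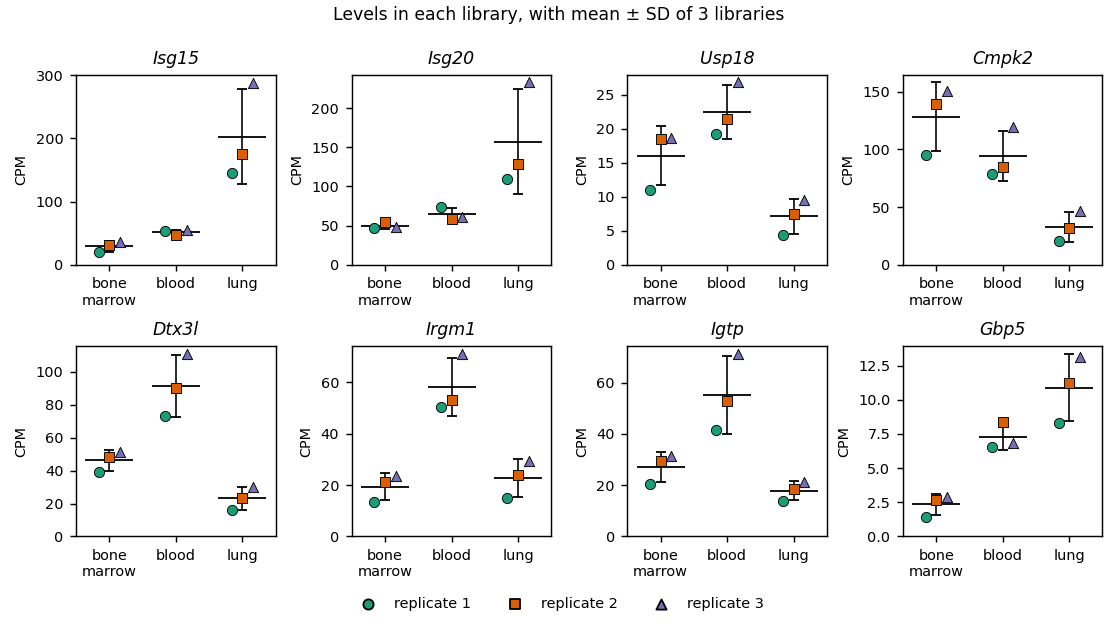
Level in CPM of 8 genes in each library, with the mean ± SD of 3 libraries as bars and the replicate number by symbol and colour; each panel has its own linear axis from 0. Isg15 and Isg20 are highest in the 3 lung libraries, Usp18 and Cmpk2 lowest there, and Dtx3l, Irgm1 and Igtp peak in blood.

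The RNA sensors did not follow 1 pattern. Ifih1, which encodes the long double-stranded RNA sensor MDA5, read 22.3, 27.1 and 27.8 CPM in bone marrow, 42.8, 48.9 and 51.9 in blood and 19.6, 32.3 and 43.0 in lung. Blood was above bone marrow without overlap (0.90 ± 0.25, adjusted p = 0.0341), a call lost on leaving out any 1 library of either tissue or lung library 2. The highest lung library just reached the lowest blood library. Ddx58, which encodes the sensor RIG-I, read 99.7, 128 and 136 CPM in bone marrow, 128, 135 and 151 in blood and 59.5, 70.9 and 103 in lung. It was lower in lung than in blood (-0.82 ± 0.22, adjusted p = 0.0203) and than in bone marrow (-0.64 ± 0.22, adjusted p = 0.0432), where lung library 3 overlapped bone marrow library 1, and the second call held under 6 of 18 alternatives. Leaving out bone marrow library 2 or 3, or any blood library, or lung library 1 or 2 ended it, and leaving out any blood library or lung library 1 or 2 ended the first.

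Dhx58, which encodes LGP2, a regulator of those sensors, was the gene that was lower in blood than in bone marrow and lower again in lung. Dhx58 read 38.1, 52.8 and 58.1 CPM in bone marrow, 28.5, 31.7 and 32.7 in blood and 13.4, 16.6 and 21.1 in lung. The 3 tissues did not overlap, and the difference between lung and bone marrow was -1.54 ± 0.21 (2.92-fold, adjusted p = 0.000538). The differences were -0.68 ± 0.20 for blood against bone marrow (adjusted p = 0.0425) and -0.86 ± 0.20 for lung against blood (adjusted p = 0.0133). The first of these held under 6 of 18 alternatives and was lost without bone marrow library 2 or 3, any blood library or lung library 2, and the second was lost without any 1 blood library. Trim25, the ubiquitin ligase that acts with RIG-I, averaged 283 ± 40.5 CPM in bone marrow, 302 ± 33.8 in blood and 256 ± 60.4 in lung. Eif2ak2, which encodes the RNA-activated kinase PKR, averaged 29.7 ± 4.71, 25.4 ± 2.16 and 22.5 ± 5.54 CPM. Neither it nor Trim25 passed in the reported fit. With the replicate block Eif2ak2 was lower in lung than in bone marrow (adjusted p = 0.0462).

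The genes of the oligoadenylate synthetase family, which includes enzymes whose product activates RNase L, mostly overlapped between tissues. In the reported fit 1 of 6, Oasl2, passed in at least 1 comparison, against 50.2% of all genes. Oasl2 read 140, 227 and 258 CPM in bone marrow, 382, 508 and 699 in blood and 141, 241 and 346 in lung. Every blood library was above every library of the other tissues, although the libraries of each tissue were widely spread. Blood was above bone marrow by 1.34 ± 0.37 (adjusted p = 0.0326), a call lost without any bone marrow or blood library or lung library 2. The difference of lung from blood was -1.13 ± 0.37 (adjusted p = 0.0493), which was the least stable call of all, kept under 4 of 19 alternatives, and lost on leaving out any library but lung library 3. Oas2 averaged 178 ± 46.5 CPM in bone marrow, 296 ± 55.0 in blood and 193 ± 76.3 in lung, and its blood libraries were above all bone marrow libraries with an adjusted p of 0.127, or 0.00741 with the replicate block. Oas3 averaged 436 ± 97.8, 394 ± 89.1 and 279 ± 116 CPM, Oasl1 68.9 ± 10.4, 87.3 ± 14.8 and 72.3 ± 19.4, Oas1a 51.6 ± 19.2, 33.4 ± 6.43 and 29.4 ± 11.8, and Oas1g 12.7 ± 3.77, 10.8 ± 3.13 and 6.79 ± 2.98. For Oas3 and Oas1g the order of bone marrow and blood turned with the scaling.

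The IFIT proteins bind viral RNA that lacks host marks, and their genes lie together on chromosome 19. For 4 of 4 of them the mean was highest in blood (26.5% of all genes). By edgeR 0 of 4 passed in blood against bone marrow, where 8.34% of all genes were higher and 13.1% lower. DESeq2 called 2 higher (11.8% of all genes), limma-voom 1 (7.68%) and the replicate block 4 (12.1%). Ifit1 averaged 22.8 ± 6.16 CPM in bone marrow, 39.7 ± 7.98 in blood and 23.4 ± 9.05 in lung. Ifit2 averaged 11.4 ± 3.02, 20.3 ± 2.48 and 12.6 ± 3.57 CPM, and its blood libraries lay above all others (adjusted p = 0.054 against bone marrow and 0.086 for lung against blood). Ifit3 averaged 38.3 ± 13.4, 78.8 ± 21.6 and 41.0 ± 17.2 CPM. Ifit3b read 14.8, 29.9 and 32.6 CPM in bone marrow, 30.3, 48.8 and 64.3 in blood and 8.43, 16.1 and 24.0 in lung, and it was lower in lung than in blood (-1.57 ± 0.44, adjusted p = 0.0265). That call was lost without blood library 2 or 3 or lung library 1 or 2. Ifit3 and Ifit3b are near-identical copies: 51.2% of the 50-base words of Ifit3 occur in Ifit3b, so how reads were divided between them is uncertain. The same holds for Oas1a, which shares 56.9% of its words with Oas1g.

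Of the 13 other antiviral effectors, 5 passed in at least 1 comparison, against 50.2% of all genes. Isg20, an exonuclease that degrades single-stranded RNA, read 46.9, 54.5 and 48.2 CPM in bone marrow, 74.1, 59.0 and 61.6 in blood and 109, 128 and 234 in lung. The 3 tissues did not overlap. It was higher in lung than in blood by 1.27 ± 0.27 (adjusted p = 0.00813) and than in bone marrow by 1.65 ± 0.27 (adjusted p = 0.00153), and the first call was lost without blood library 2 or 3 (adjusted p of 0.0664 and 0.0673). Lung library 3 had the highest level of both Isg15 and Isg20, and it was the highest of its tissue for 34 of the 44 genes (39.8% of all genes). Without the libraries numbered 3, all 16 calls between lung and blood were kept, those of Isg15 and Isg20 included. The part of other cells in these differences was not tested.

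Cmpk2, a mitochondrial nucleotide kinase that lies beside Rsad2 on chromosome 12, read 94.7, 139 and 151 CPM in bone marrow, 78.6, 84.5 and 119 in blood and 20.6, 31.97 and 46.6 in lung. All lung libraries lay below all others. The difference was -1.51 ± 0.31 from blood (2.85-fold, adjusted p = 0.0078), a call lost without blood library 3, and -1.96 ± 0.32 from bone marrow (3.88-fold, adjusted p = 0.00149). Rsad2, the neighbour that encodes viperin, did not follow it: it averaged 173 ± 24.6 CPM in bone marrow, 227 ± 52.4 in blood and 198 ± 83.2 in lung, with overlap throughout. Trim30a, a TRIM protein that restrains inflammatory signalling, read 134, 159 and 173 CPM in bone marrow, 271, 330 and 383 in blood and 130, 192 and 274 in lung. It was higher in blood than in bone marrow (1.08 ± 0.27, adjusted p = 0.0212), a call lost without any 1 library of either tissue. Tor3a, a torsin ATPase, read 6.198, 7.70 and 8.67 CPM in bone marrow, 13.2, 14.7 and 17.0 in blood and 10.4, 10.7 and 10.6 in lung, with 3 separate ranges. It was higher in blood than in bone marrow by 0.99 ± 0.18 (adjusted p = 0.00488), and lung lay between the others.

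Bst2, which encodes tetherin, a protein that holds budding virus at the cell surface, read 4.27, 5.41 and 5.06 CPM in bone marrow, 7.37, 9.13 and 5.03 in blood and 14.6, 10.8 and 6.38 in lung. It was higher in lung than in bone marrow (1.11 ± 0.33, adjusted p = 0.0274), and the call was lost without any bone marrow library or lung library 1 or 2. Within lung it was highest in library 1 and lowest in library 3, as were the summed B-cell markers (526, 474 and 53.0 CPM) and fibroblast markers (1889, 1479 and 107 CPM). The part of those cells in the difference was not tested. Mx1 and Mx2, genes of the dynamin-like GTPase family, were also lowest in library 3. All Mx2 reads were counted on a non-coding transcript, with 0 on the coding one, and part of the Mx1 reads were on a non-coding transcript. Mx1 read 1.76, 1.94 and 0.92 CPM in bone marrow, 5.65, 7.32 and 1.56 in blood and 3.74, 4.88 and 0.67 in lung. Mx2 read 0.644, 0.882 and 0.256 CPM in bone marrow, 2.25, 3.13 and 0.566 in blood and 1.22, 1.61 and 0.77 in lung. The B-cell markers were likewise lowest in library 3 of each tissue, and their part in these levels was not tested. Neither Mx1 nor Mx2 passed in the reported fit. With the replicate block both were higher in blood than in bone marrow (adjusted p of 0.0280 and 0.0285).

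The remaining effectors did not pass in any comparison of the reported fit. With the replicate block Rtp4 was higher than in bone marrow in blood (adjusted p = 0.00514) and in lung (adjusted p = 0.0310). Samhd1, a dNTP hydrolase, averaged 1249 ± 225 CPM in bone marrow, 1159 ± 240 in blood and 1079 ± 413 in lung. Rtp4 averaged 55.8 ± 18.3, 95.9 ± 20.4 and 79.1 ± 36.0 CPM, Xaf1 9.56 ± 2.05, 9.09 ± 1.85 and 6.94 ± 1.14, and Ifi35 23.4 ± 4.69, 27.1 ± 2.57 and 29.6 ± 5.26. Ifi44 had 0 to 28 reads a library, so that no difference was detectable at this depth.

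PARP9 and DTX3L form a complex of an ADP-ribosyltransferase family member and a ubiquitin ligase, and PARP14 belongs to the same family. Their genes lie within chr16:35832878-35972621, and their means were all highest in blood. Parp14 read 78.2, 87.7 and 81.9 CPM in bone marrow, 155, 179 and 205 in blood and 75.5, 85.3 and 121 in lung. Blood was above both without overlap, by 1.12 ± 0.20 over bone marrow (2.17-fold, adjusted p = 0.00445), and lung was lower than blood by -0.94 ± 0.19 (1.92-fold, adjusted p = 0.00779). The first call was lost without blood library 3 (adjusted p = 0.0501) and the second without blood library 2 or 3. Parp9 read 33.0, 40.6 and 44.2 CPM in bone marrow, 51.1, 64.0 and 74.7 in blood and 22.8, 29.9 and 41.99 in lung. It was lower in lung than in blood (-1.005 ± 0.24, adjusted p = 0.0133), a call lost without blood library 2 or 3, and its difference between blood and bone marrow missed the threshold (adjusted p = 0.0692).

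Dtx3l differed in every comparison. It read 39.1, 48.1 and 51.6 CPM in bone marrow, 72.9, 90.3 and 111 in blood and 16.03, 23.3 and 29.9 in lung, and the 3 tissues did not overlap. Lung was lower than blood by -1.98 ± 0.25 (3.96-fold, adjusted p = 0.000877) in every alternative tried, and lower than bone marrow by -1.004 ± 0.24 (2.01-fold, adjusted p = 0.0115), a call lost without blood library 2. Blood was above bone marrow by 0.98 ± 0.24 (adjusted p = 0.0204), lost without any bone marrow library or blood library 2 or 3. The gene models of Parp9 and Dtx3l overlap by 558 bases, and whether the authors' counting used strand is not given in the sources used here, so reads there cannot be assigned with certainty. In lung against bone marrow the difference of Parp9 was -0.32 ± 0.24 (adjusted p = 0.316), which passed with the replicate block (-0.35 ± 0.12, adjusted p = 0.0443).

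The interferon-inducible GTPases, which coat and break open the vacuoles of intracellular pathogens, mostly had more RNA in blood. Of 7 measured, 6 were higher in blood than in bone marrow (8.34% of all genes), and for 7 of 7 the libraries did not overlap (19.8%). DESeq2, upper-quartile scaling and library totals each called 7 of 7 (11.8%, 12.5% and 17.4% of all genes). Irgm1, a regulator of the family and of autophagy, read 13.4, 21.03 and 23.4 CPM in bone marrow, 50.6, 53.1 and 71.1 in blood and 14.8, 24.1 and 29.4 in lung. Blood was above both other tissues without overlap, by 1.59 ± 0.29 against bone marrow (3.02-fold, adjusted p = 0.00557), and lung differed from blood by -1.36 ± 0.29 (2.56-fold, adjusted p = 0.00889), a call lost without blood library 3. Igtp, also called Irgm3, read 20.3, 29.6 and 31.2 CPM in bone marrow, 41.4, 52.7 and 71.3 in blood and 13.9, 18.6 and 21.3 in lung. Lung was lower than blood by -1.62 ± 0.26 (3.08-fold, adjusted p = 0.0024) under every alternative, and blood was above bone marrow by 1.03 ± 0.25 (adjusted p = 0.02), a call lost without bone marrow library 1 or 2 or blood library 2 or 3. Of the 50-base words of Igtp, 12.3% occur in its neighbour Irgm2. Ifi47 read 6.65, 8.72 and 9.0 CPM in bone marrow, 17.4, 20.1 and 19.96 in blood and 9.79, 12.3 and 11.8 in lung. It was higher in blood than in bone marrow by 1.24 ± 0.17 (adjusted p = 0.00148) and lower in lung than in blood by -0.76 ± 0.17 (adjusted p = 0.0112), the second lost without blood library 2 or 3. The listed span of Ifi47 lies within the gene model of Olfr56.

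The guanylate-binding proteins of chromosome 3 did not share 1 pattern, although their genes lie within 142496934 to 142638008. Gbp7 followed the immunity-related GTPases: it read 26.4, 32.5 and 26.4 CPM in bone marrow, 43.8, 57.5 and 71.1 in blood and 13.4, 23.3 and 28.7 in lung. It was higher in blood than in bone marrow (1.02 ± 0.28, adjusted p = 0.0309), a call lost without any library of either tissue, and lower in lung than in blood (-1.40 ± 0.28, adjusted p = 0.00676), lost without blood library 3. Gbp5, which helps activate the NLRP3 inflammasome, stayed high in lung instead. Gbp5 read 1.45, 2.69 and 2.91 CPM in bone marrow, 6.56, 8.38 and 6.86 in blood and 8.32, 11.2 and 13.2 in lung. It was higher than in bone marrow in both blood (1.63 ± 0.30, 3.09-fold, adjusted p = 0.00601) and lung (2.21 ± 0.31, 4.63-fold, adjusted p = 0.000683), while lung library 1 overlapped blood library 2. Gbp3 read 2.65, 2.94 and 2.199 CPM in bone marrow, 6.56, 8.53 and 6.64 in blood and 6.56, 7.39 and 3.80 in lung. It too was above bone marrow in blood (1.48 ± 0.30, adjusted p = 0.00837) and in lung (1.19 ± 0.30, adjusted p = 0.0128), the latter lost without bone marrow library 3 or lung library 2. Gbp2 averaged 26.1 ± 7.21, 55.1 ± 17.1 and 46.3 ± 23.3 CPM and did not pass in the reported fit. In blood against bone marrow it passed with DESeq2, upper-quartile scaling, library totals, only those tissues compared, the replicate block (adjusted p = 0.00203), and without lung library 1 or 3.

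Libraries of the same number often stood at the same end of their tissue. Library 1 was the lowest of its tissue in bone marrow for 39 of 44 genes (38.5% of all genes), in blood for 34 of 44 (25.6%) and in lung for 37 of 44 (30.9%). In all 3 tissues together it was the lowest for 31 of 44 genes, against 6.00% of all genes. Over the 4 scalings this number was 27 to 31, against 3.63% to 6.2% of all genes. Library 3 was the highest in all 3 tissues for 26 of 44 genes, against 18.7% of all genes. With library totals it was so for 4 of 44, against 2.96% of all genes. The summed level of the 44 genes was 3299, 4143 and 4782 CPM in bone marrow, 4523, 4869 and 6184 in blood and 2773, 3590 and 5473 in lung. Exceptions were Mx1, Mx2, Bst2, Gbp3 and Ifi44, in which lung library 3 was the lowest of its tissue. The neutrophil markers were also highest in library 3 of each tissue. The summed monocyte markers were 979, 1149 and 1404 CPM in bone marrow, 1006, 1077 and 1156 in blood and 666, 835 and 1093 in lung. In the main scaling they had library 1 lowest and library 3 highest in every tissue, as the sum of the 44 genes did. Its factors were 0.937, 0.8985 and 0.776 in bone marrow, 1.08, 1.26 and 1.05 in blood and 1.19, 1.14 and 0.791 in lung. Without these factors library 1 would stay lowest, but library 2 would have the highest monocyte sum in blood and lung. The sum of the 44 genes would then be nearly level in bone marrow libraries 2 and 3. The part of neutrophils and monocytes in the pattern was not tested.

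**Figure D4:**
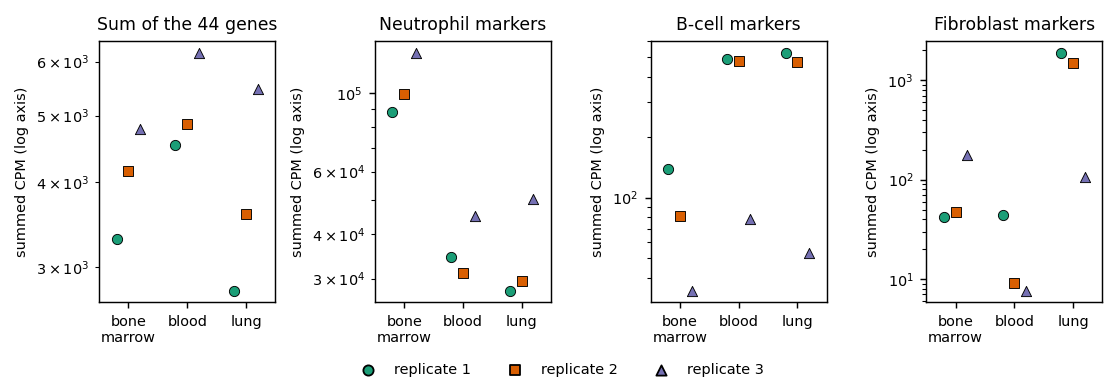
Summed CPM (log axes) of the 44 genes and of the neutrophil, B-cell and fibroblast markers in each library, with the replicate number by symbol and colour. In the main scaling, library 1 has the lowest and library 3 the highest sum of the 44 genes in each tissue. The B-cell sum is lowest in library 3.

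On the deposited per-length scale (FPKM), Samhd1 was the most abundant of the 44 genes in every tissue, at 262 ± 22.02 FPKM in bone marrow (SD, n = 3), 313 ± 44.8 in blood and 257 ± 36.6 in lung. Isg15 was at 32.05 ± 7.04 FPKM in bone marrow, 74.1 ± 1.82 in blood and 255 ± 35.2 in lung, where it differed from Samhd1 by less than the spread between libraries. Isg20 followed in lung at 134 ± 25.0 FPKM. Oasl2 was second in blood at 183 ± 50.2 FPKM, against 55.4 ± 12.8 in bone marrow and 73.5 ± 19.0 in lung. The median of the 44 genes was 9.45 FPKM in bone marrow, 20.4 in blood and 9.87 in lung. No median of all genes was taken on this scale, which does not carry the trimmed-mean factors of the CPM values. These medians therefore do not show a difference particular to the 44 genes. The order of tissues can differ between the scales, as for Samhd1, at 1249 CPM in bone marrow and 1159 in blood. Ifi44, Mx2 and Mx1 were the least abundant in every tissue, with means of at most 1.96 FPKM.

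Genes upstream of these were read from lists of the pathway. Of 21 interferon ligand genes, 16 had 0 reads in all 9 libraries, and only Ifng passed the filter on low counts. Ifng had 240, 290 and 51 reads in bone marrow, 15, 38 and 0 in blood and 249, 110 and 6 in lung. It was lowest in library 3 of each tissue, like the summed T and NK cell markers (90.3, 95.8 and 36.1 CPM in bone marrow, 52.2, 107 and 17.98 in blood, 137, 146 and 19.99 in lung), and passed in no comparison. Ifnb1, the interferon beta gene, had 0 to 32 reads a library.

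Of 9 receptor and kinase genes, 4 were higher in lung than in blood (13.2% of all genes). Ifnar1, a chain of the type I receptor, read 126, 134 and 134 CPM in bone marrow, 144, 147 and 187 in blood and 287, 298 and 466 in lung. Every lung library was above every other, by 1.14 ± 0.21 against blood (adjusted p = 0.00528) and 1.41 ± 0.22 against bone marrow (adjusted p = 0.00108). Ifnar2, the other chain, was higher in lung than in blood (0.89 ± 0.20, adjusted p = 0.0109). Ifngr1, a chain of the interferon gamma receptor, was lower in blood than in bone marrow (-0.60 ± 0.15, adjusted p = 0.0227) and higher in lung than in blood (0.53 ± 0.15, adjusted p = 0.0288), while Ifngr2 passed in no comparison. Ifnlr1, the lambda receptor chain, was lower than in bone marrow in blood (-1.37 ± 0.30, adjusted p = 0.0119) and lung (-1.59 ± 0.30, adjusted p = 0.00331).

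Of 8 negative regulators, 1 rose (8.34% of all genes) and 1 fell (13.1%) in blood against bone marrow. In lung against blood 2 rose (13.2%) and 3 fell (15.7%), and in lung against bone marrow 2 rose (15.6%) and 3 fell (22.6%). Socs3, an inhibitor of JAK kinases, was the one that rose in blood (2.49 ± 0.26, adjusted p = 0.000279), and Ptpn2, a tyrosine phosphatase that damps JAK signalling, was higher in lung than in blood (1.51 ± 0.17, adjusted p = 0.000582). Irf2bp1, a corepressor that binds IRF2, was lower in lung than in blood (-1.61 ± 0.34, adjusted p = 0.00802).

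Of 63 further interferon-responsive genes, 61 were in the table and 57 were tested. In blood against bone marrow 6 were higher (8.34% of all genes) and 5 lower (13.1%), in lung against blood 4 (13.2%) and 13 (15.7%), and in lung against bone marrow 9 (15.6%) and 11 (22.6%), with medians of 0.46, -0.10 and 0.38. Irgm2, the neighbour of Igtp, read 13.8, 20.6 and 26.6 CPM in bone marrow, 39.9, 58.6 and 133 in blood and 11.9, 17.2 and 24.4 in lung, and it was lower in lung than in blood by -2.12 ± 0.47 (adjusted p = 0.0103). Trim30d, a relative of Trim30a, and Gbp9 were also higher in blood than in bone marrow, by 1.79 ± 0.29 (adjusted p = 0.00333) and 1.32 ± 0.21 (adjusted p = 0.00287). Cd274, which encodes the checkpoint ligand PD-L1, was higher in lung, with 548, 611 and 871 CPM there against 74.8 to 136 in blood (2.72 ± 0.30, adjusted p = 0.000511). Mov10, an RNA helicase, fell from bone marrow to blood (-1.25 ± 0.28, adjusted p = 0.0134) and from blood to lung (-1.75 ± 0.28, adjusted p = 0.00272), the order that Dhx58 showed. Ube2l6, the conjugating enzyme of ISG15, was lower in lung than in bone marrow (-2.42 ± 0.54, adjusted p = 0.00815) and than in blood (-1.71 ± 0.53, adjusted p = 0.0387), at 9.32, 7.87 and 6.41 CPM in lung. Nampt, an enzyme of NAD synthesis, and Sp110, a nuclear body protein, were lower in blood than in bone marrow, by -1.77 ± 0.21 (adjusted p = 0.000618) and -1.002 ± 0.20 (adjusted p = 0.00875). Ifi30, a lysosomal thiol reductase, was higher in lung than in bone marrow (2.21 ± 0.43, adjusted p = 0.00376), and Ddx60, a helicase that acts with RIG-I, was lower (-1.73 ± 0.31, adjusted p = 0.00252).

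Of 15 nucleic acid sensing genes, 0 passed in blood against bone marrow, where 8.34% of all genes were higher and 13.1% lower. In lung against blood 3 were higher (13.2% of all genes) and 3 lower (15.7%), and in lung against bone marrow 3 (15.6%) and 3 (22.6%). Mb21d1, which encodes the DNA sensor cGAS, was higher in lung than in blood (1.29 ± 0.30, adjusted p = 0.0127) and than in bone marrow (1.91 ± 0.31, adjusted p = 0.00145). Ikbke, a kinase that activates interferon regulatory factors, was higher in lung than in blood (1.33 ± 0.42, adjusted p = 0.0417), and Tlr8, an endosomal RNA receptor, was lower in lung than in bone marrow (-2.07 ± 0.32, adjusted p = 0.00114).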

How the data were processed

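RNA of sorted neutrophils from bone marrow, blood and lung was sequenced in 3 libraries a tissue. The series table holds read counts and FPKM of 36780 transcripts as the authors deposited them. Per-library tables deposited for bone marrow hold the same counts for all 36780 transcripts. The deposited RSEM tables of blood and lung hold expected counts and TPM. The submitters' processing notes name Bowtie2, STAR, StringTie 2.1.3b, RSEM, DESeq2 and mm10 without roles. No column of per-sample values was left unmapped.

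Counts were summed by gene identifier (24532 genes), and 13510 genes passed filterByExpr. edgeR 4.0.16 (R 4.3.3; quasi-likelihood, robust, TMM) was fitted to all 9 libraries with a mean per tissue, with Benjamini-Hochberg adjustment over all genes tested and a threshold of 0.05. Library totals of 42045548 to 56796219 counts make the floor of 3 reads at most 0.0714 CPM, for counting error only. Expected counts were rounded to whole numbers before their fit, and the TPM values were not used. The deposited FPKM values were averaged by tissue without a test. DESeq2 1.42.0, limma 3.58.1 (voom), other scalings, no filter, a replicate block, 2 tissues alone and leaving out libraries were the alternatives. The edgeR, DESeq2 and limma-voom steps were tested on simulated data, in which DESeq2 called more unchanged genes and was held to a looser bound.

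The 44 genes and all lists were chosen with earlier results of these data known. Every one of the 44 is reported, and of the pathway lists up to 4 genes per comparison and direction were named, those with the largest log2 fold changes among genes past the threshold with a mean of at least 5 CPM in the higher tissue, plus the ligands detected and the chains of the type I and gamma receptors. In all 9 pairs of libraries with the same number, deviations from the tissue means correlated positively (0.114 to 0.539). The 18 other pairs ran from -0.581 to 0.496. Deviations of the libraries of a tissue cancel, so these correlations are not independent. The replicate number was used as a block in an alternative fit, and the reported fit took no account of it. The labels and the columns of the deposited table give the tissues matching numbers, but no label ties a number to an animal or a day. A pairing by number therefore remains an assumption. Part of the signalling lists is not reported here.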

Additional observations from a re-analysis of the deposited data

How the results depend on the processing

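No difference past the threshold changed sign under any alternative, while differences that did not pass, such as those of Eif2ak2, Oas1g, Oas3 and Samhd1 between blood and bone marrow, did. The number of the 44 genes past the threshold moved, and the share of all genes called often moved with it. In blood against bone marrow, 14 genes were higher in the reported fit (8.34% of all genes), 31 with library totals (17.4%) and 23 with only the 2 tissues compared (17.3%). On leaving out 1 library 5 to 19 were higher (3.51% to 10.9%). The 1 lower gene became 0 with DESeq2 size factors, library totals, no filter, DESeq2, only the 2 tissues compared and without the libraries numbered 3 (5.95% to 15.2% of all genes). It became 0 to 1 on leaving out 1 library (4.44% to 16.3%). In lung against blood, 14 lower genes (15.7% of all genes) became 9 with DESeq2 size factors (10.6%) and 23 with library totals (21.0%). On leaving out 1 library they became 3 to 23 (6.61% to 20.2%), while the 2 higher genes became 1 to 3 (6.54% to 19.8%). In lung against bone marrow, 5 higher genes (15.6%) became 12 with upper-quartile scaling (23.0%) and 12 with library totals (18.5%). They became 3 to 8 on leaving out 1 library (6.62% to 22.9%). The 5 lower genes (22.6%) became 3 with only the 2 tissues compared (17.8%) and 8 without the libraries numbered 3 (25.5%). They became 2 to 10 on leaving out 1 library (14.9% to 25.0%). The cause was not tested.

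With the replicate number as a block, 25 were higher (12.1% of all genes) and 2 lower (17.5%) in blood against bone marrow. In lung against blood 24 were lower (19.8%), and in lung against bone marrow 9 were higher (18.2%) and 12 lower (26.0%). Genes with few reads, such as Ifi44, are limited by depth.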
